A study of Mus musculus with 4 samples.

Results

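The genes described here are 10 regulators of the step from G1 into S phase, namely the D-type cyclins Ccnd1, Ccnd2 and Ccnd3, their kinases Cdk4 and Cdk6, the kinase inhibitors Cdkn1b and Cdkn2c, the retinoblastoma gene Rb1, and the transcription factors E2f1 and E2f2. They were taken as a fixed list by symbol, and all 10 were found among the 34866 genes of the deposited table. RNA-sequencing had been done on B220+ IgM+ splenocytes of 2 sick λ-MYC Tom+/ki mice, with Tom+ and Tom- cells taken separately from each, 4 libraries in all. Both mice, and so all 4 libraries, carried a human MYC transgene under λ light chain regulatory sequences, a Cre knock-in allele and a Cre-dependent tdTomato reporter at Rosa26, so that Tom marks cells in which Cre had been active at any time, including in the past. The age of the mice is not given in the sources used here. Tumor #1 and tumor #2 are 1 mouse each, so the libraries of a tumor are fractions of the same animal and not replicates of a kind of tumor. A level is given in transcripts per 1000000 (TPM), which is scaled per transcript length and can be set side by side between genes. Where a pair of values is given for a tumor, that of Tom- cells comes first.

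In G1, a D-type cyclin binds CDK4 or CDK6, and the complex phosphorylates the RB protein, which then releases the E2F factors that switch on the genes of DNA synthesis. The INK4 inhibitor p18, encoded by Cdkn2c, binds CDK4 and CDK6 directly, and p27, encoded by Cdkn1b, acts mainly on cyclin E and CDK2. Normal B cells mostly use cyclins D2 and D3, while cyclin D1 is known for its activation in mantle cell lymphoma, and Cdk4 is a known target of MYC.

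Because a MYC transgene drives these tumors, windows before RefSeq starts of the genes were searched for CACGTG, the E-box bound by MYC and MAX, which reads the same on both strands. RefSeq windows of 250 bases on GRCm38.p6 were at hand for 7 of the 10 genes, as 10 windows, and 2 genes, Cdk4 and Cdk6, held the motif. Some windows lay inside the span of the gene given below and not upstream of it, among them those of Cdk6, E2f1 and Cdkn2c. The window of Cdk4 held 4 copies, which 7 of 32851 windows (0.0213%) equalled or exceeded, while 1978 windows (6.02%) held at least 1. Its sequence, at chr10:127063285-127063534 on the plus strand, is given beside that of the window before the first start of Ccnd3, at chr17:47504801-47505050 on the plus strand, which held none, since these genes had the highest levels of the kinases and of the cyclins. Both run 5′ to 3′, with each E-box in capitals. A match of letters is a description of the window and not a measured site.
Cdk4: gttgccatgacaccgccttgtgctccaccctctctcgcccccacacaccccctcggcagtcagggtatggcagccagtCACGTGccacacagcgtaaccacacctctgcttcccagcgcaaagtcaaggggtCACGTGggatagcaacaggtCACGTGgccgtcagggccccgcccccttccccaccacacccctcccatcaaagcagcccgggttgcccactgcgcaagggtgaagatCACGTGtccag
Ccnd3: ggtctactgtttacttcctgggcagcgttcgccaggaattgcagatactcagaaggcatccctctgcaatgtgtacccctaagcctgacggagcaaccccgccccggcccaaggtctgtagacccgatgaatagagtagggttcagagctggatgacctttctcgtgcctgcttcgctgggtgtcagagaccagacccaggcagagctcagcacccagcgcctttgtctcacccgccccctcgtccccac

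The labelled B cell identity was checked by Cd79a, at 120 to 346 TPM, and by a summed level of 6 B cell markers between 950 and 2490 TPM. Of the markers of other cells, 6 for T cells summed to 0.816 to 10.5 TPM, 7 for myeloid cells to 2.64 to 13.3 TPM, 6 for erythroid cells to 0.619 to 21.5 TPM and 4 for NK cells to 0.0349 to 0.592 TPM. Hba-a1, Hba-a2, Ncr1, Nkg7 and Gzma were listed at 0 in all 4 libraries. The sums of B cell, T cell and myeloid markers were higher in both libraries of tumor #2, and that of erythroid markers was higher in both of tumor #1. The 4 plasma cell markers summed to 13.0 to 20.1 TPM in 3 libraries and to 231 TPM in Tom+ cells of tumor #2, where Jchain made up 209 TPM. Mitochondrial genes took 6.61% and 8.67% of TPM in tumor #1 and 14.4% and 15.6% in tumor #2, and pseudogenes took 23.4% to 31.3%. The part of these differences in the results below was not tested. In sorted bulk samples, fewer cells with a transcript and less of it per cell cannot be told apart.

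A comparison of the tumors has no test, since each is 1 mouse. Differences are in log2(TPM + 1), a scale that understates those of genes with a low TPM, and a gene was counted as different when tumor #2 was at least 2-fold higher, or at least 2-fold lower, on this scale in both Tom- and Tom+ cells. Genes entered when at least 2 libraries reached 1 TPM, which 11339 did, all 10 members included, and of these 11.8% were higher in tumor #2 and 3.1% were lower by this rule. Of the members 1 was higher, Ccnd2, and 1 was lower, E2f1. Without a limit on size, both libraries of tumor #2 lay above both of tumor #1 for 5 members, beside 44.8% of all genes tested, and below them for 3, beside 23.7%. The median difference of all genes tested was 0.20, and it was -0.096 under trimmed-mean scaling and -0.078 when quantiles were normalized, so that small differences between the tumors depend on the scaling. With trimmed-mean scaling, 58.8% of the genes counted as different were higher in tumor #2, and 55.9% with quantile normalization, against 79.2% with the TPM as deposited.

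**Figure D1:**
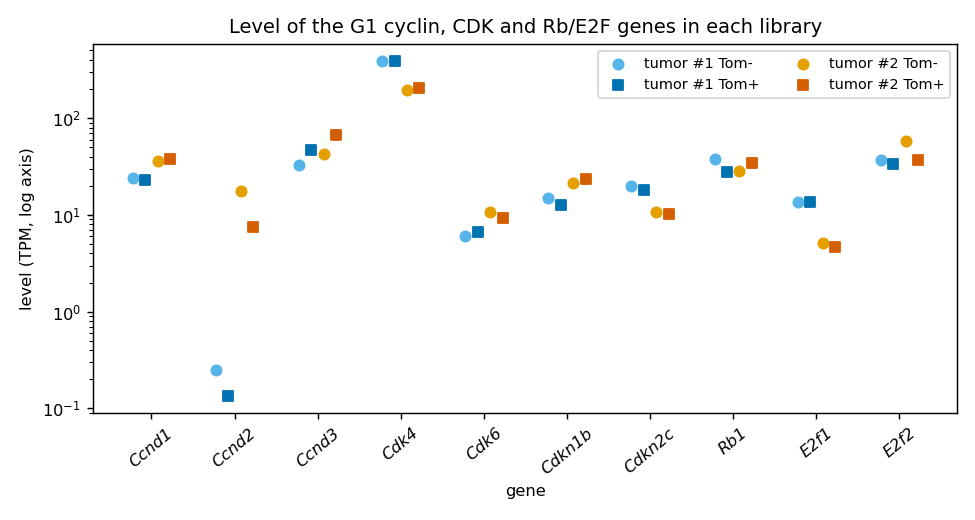
Level of each gene in TPM (log axis) in the 4 libraries, with circles for Tom- cells, squares for Tom+ cells, blue for tumor #1 and orange for tumor #2. Cdk4 lies highest in every library, at 197 to 392 TPM, and Ccnd2 is the gene that spans the widest range, from 0.134 to 17.7 TPM.

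Ccnd2, which encodes cyclin D2 (chromosome 6, 127125162 to 127152193 of GRCm38), was nearly silent in 1 tumor and expressed in the other. Its level was 0.249 TPM in Tom- cells and 0.134 TPM in Tom+ cells of tumor #1, and 17.7 TPM and 7.43 TPM in those of tumor #2. The groups of the tumors did not overlap, and the level in tumor #2 was 71.0 times that of tumor #1 in Tom- cells and 55.5 times in Tom+ cells. These ratios are uncertain, because TPM does not tell how many reads stood behind a level as low as that of tumor #1. On the log2(TPM + 1) scale the difference was 3.90 in Tom- cells and 2.89 in Tom+ cells. Differences of at least 2.89 in both fractions, with tumor #2 higher or lower in both, were found for 1.38% of the genes tested. Ccnd2 passed the filter on low values through tumor #2 alone, so a gene with its pattern could pass in no other way than by differing.

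Cyclin D3, encoded by Ccnd3 (chromosome 17, 47505051 to 47599691), made up the largest part of the D-type cyclin transcripts in all 4 libraries. Its level was 33.1 TPM in Tom- and 47.4 TPM in Tom+ cells of tumor #1, and 42.3 TPM and 66.7 TPM in tumor #2. Tom+ cells were higher in both tumors, by 1.43 and 1.58 times. Both Tom+ libraries lay above both Tom- libraries, as for 728 of the 11339 genes tested. The log2 difference between Tom+ and Tom- cells was 0.58 (SE 0.14), from 0.51 in tumor #1 and 0.65 in tumor #2, and it had the smallest p-value of the members, 0.0248 before and 0.936 after adjustment in limma's test. Between the tumors the difference was 0.35 in Tom- and 0.48 in Tom+ cells, and with trimmed-mean scaling it was no longer of the same sign in both fractions. Bysl, which shares 361 bases with the gene on the opposite strand, was at 5.75 to 7.59 TPM, and the pseudogene Ccnd3-ps at 0.114 TPM or 0.

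Cyclin D1, encoded by Ccnd1 (chromosome 7, 144929931 to 144939925), was expressed at 24.2 TPM in Tom- and 22.7 TPM in Tom+ cells of tumor #1, and at 36.3 TPM and 37.5 TPM in tumor #2. Its level thus separated the tumors, by a log2 difference of 0.56 in Tom- and 0.70 in Tom+ cells, and was close between the fractions of each, with a log2 difference of -0.019 (SE 0.15, adjusted p = 0.997 from limma). Averaged over the libraries, Ccnd1 stood above 72.4% of the genes tested. LTO1, which shares 1771 bases with it on the opposite strand, was at 4.83 to 11.5 TPM.

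The 3 D-type cyclins added up to 57.5 TPM in Tom- and 70.3 TPM in Tom+ cells of tumor #1, and to 96.2 TPM and 112 TPM in tumor #2. Shares within a library do not depend on a factor applied to the whole library. Ccnd1 gave 42.1% and 32.4% of the sum in tumor #1, and 37.7% and 33.6% in tumor #2. Ccnd3 gave 57.5% and 67.4% in tumor #1, and 43.9% and 59.7% in tumor #2, with the higher share in Tom+ cells of each. For Ccnd2 the shares were 0.433% and 0.191% in tumor #1, and 18.4% and 6.65% in tumor #2, with the lower share in Tom+ cells of each. Those of tumor #1 rest on 0.249 and 0.134 TPM, with unknown read support, so their order is uncertain.

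**Figure D2:**
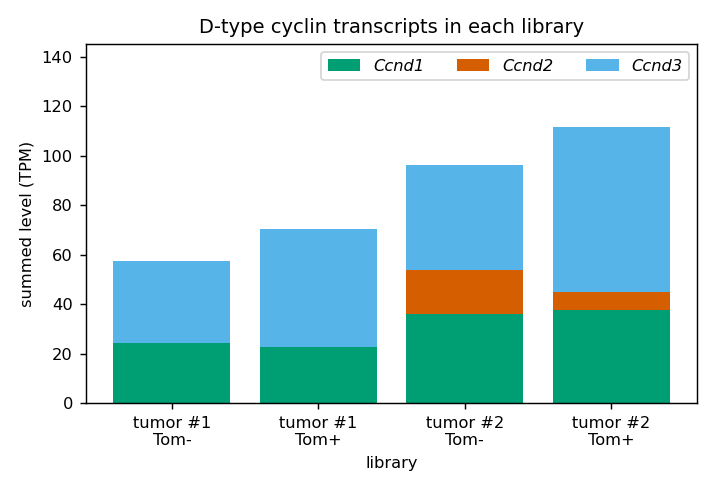
Summed level in TPM of Ccnd1, Ccnd2 and Ccnd3 in each library, as stacked bars from 0. The segment of Ccnd2 is visible in tumor #2 only, at 17.7 TPM in Tom- and 7.43 TPM in Tom+ cells, and the segment of Ccnd3 is taller in the Tom+ bar of each tumor.

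Of the kinases, Cdk4 (chromosome 10, 127063534 to 127067920) was far above Cdk6 (chromosome 5, 3341485 to 3531008) in every library. Cdk4 was at 392 TPM in Tom- and 388 TPM in Tom+ cells of tumor #1, and at 197 TPM and 205 TPM in tumor #2. The tumors did not overlap, and tumor #1 was 1.99 times tumor #2 in Tom- cells and 1.89 times in Tom+ cells. Its log2 difference between the tumors, -0.99 and -0.91, fell just short of the 2-fold limit with the TPM as deposited and passed it with trimmed-mean scaling. The mean difference was -0.95 as deposited and -1.29 with that scaling. It was -0.88 with quantile normalization, -0.93 without immunoglobulin genes and -0.87 with protein-coding nuclear genes only. Tom+ and Tom- cells were close, with a log2 difference of 0.023 (SE 0.12, adjusted p = 0.990 from limma). Tspan31, which overlaps Cdk4 by 641 bases on the opposite strand, was at 6.69 to 11.8 TPM and lay higher in tumor #2, the other way from Cdk4.

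Cdk6 was at 6.0 TPM in Tom- and 6.62 TPM in Tom+ cells of tumor #1, and at 10.8 TPM and 9.36 TPM in tumor #2. It was higher in both libraries of tumor #2, by a log2 difference of 0.75 in Tom- and 0.44 in Tom+ cells. With Cdk4 lower and Cdk6 higher in tumor #2, the share of Cdk6 in the sum of both kinases was 1.51% and 1.68% in tumor #1 and 5.21% and 4.36% in tumor #2. The difference between Tom+ and Tom- cells was -0.033 (SE 0.21, adjusted p = 0.994 from limma), with opposite signs in the tumors.

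The inhibitors of the kinases differed between the tumors in opposite directions. Cdkn2c, which encodes p18 (chromosome 4, 109660876 to 109667189), was at 20.0 TPM in Tom- and 18.1 TPM in Tom+ cells of tumor #1, and at 10.8 TPM and 10.2 TPM in tumor #2. Both libraries of tumor #1 were thus higher, by 1.85 and 1.78 times, with a log2 difference of -0.83 and -0.77 for tumor #2 minus tumor #1. Cdkn1b, which encodes p27 (chromosome 6, 134920401 to 134925513), was at 14.96 TPM and 12.6 TPM in tumor #1, and at 21.2 TPM and 23.3 TPM in tumor #2. Here both libraries of tumor #2 were higher, with a log2 difference of 0.48 in Tom- and 0.83 in Tom+ cells. The sum of both inhibitors was close in all 4 libraries, between 30.8 and 34.9 TPM. Between Tom+ and Tom- cells, the log2 difference was -0.10 (SE 0.17, adjusted p = 0.956 from limma) for Cdkn2c, with the same sign in both tumors except when protein-coding nuclear genes alone were kept, and -0.048 (SE 0.19, adjusted p = 0.989) for Cdkn1b, with opposite signs.

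Rb1, whose protein holds the E2F factors in check (chromosome 14, 73183673 to 73325822), did not separate the tumors. Its level was 38.2 TPM in Tom- and 27.9 TPM in Tom+ cells of tumor #1, and 28.4 TPM and 34.1 TPM in tumor #2, so that Tom+ cells were lower in tumor #1 and higher in tumor #2. The log2 difference between Tom+ and Tom- cells was -0.095 (SE 0.24, adjusted p = 0.977 from limma), from -0.44 in tumor #1 and 0.25 in tumor #2. Rcbtb2, a neighboring gene that shares 24171 bases with Rb1 on the opposite strand, took the values 40.6, 24.9, 24.05 and 33.0 TPM in the same libraries, with the same directions within each tumor. Lpar6, which shares 5400 bases with Rb1 on that strand, had 1.76 and 1.79 TPM in tumor #1 against 3.28 and 3.46 TPM in tumor #2, without the difference that Rb1 showed between the fractions of tumor #1. Shared bases are counted here over whole gene spans, introns included, and not over transcripts. By that count, 6 of the 10 genes share bases with another annotated gene. Whether the library preparation or the quantification used strand is not given in the sources used here, and the part of the overlap in the values of Rb1 was not tested.

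The E2F genes also went apart. E2f1, an activator E2F (chromosome 2, 154559407 to 154569892), was at 13.5 TPM in Tom- and 13.7 TPM in Tom+ cells of tumor #1, and at 5.16 TPM and 4.70 TPM in tumor #2. Tumor #1 was 2.62 and 2.92 times higher, with no overlap, and the log2 difference for tumor #2 minus tumor #1 was -1.24 and -1.37. Differences of at least 1.24 in both fractions, with tumor #2 higher or lower in both, were found for 10.4% of the genes tested. At the smaller 2-fold limit, 3.1% of the genes tested were lower in tumor #2. E2f2, another activator E2F (chromosome 4, 136172394 to 136196057), was at 36.7 TPM and 33.2 TPM in tumor #1, and at 58.2 TPM and 37.3 TPM in tumor #2. Its level in Tom- cells of tumor #2 stood above the other three libraries, and the log2 difference between the tumors was 0.65 in Tom- and 0.16 in Tom+ cells, the sign of the latter depending on the scaling. The level of E2f2 exceeded that of E2f1 in all 4 libraries, by 2.72 and 2.42 times in tumor #1 and 11.3 and 7.93 times in tumor #2, a ratio that no factor applied to a whole library changes. Tom+ cells had less E2f2 in both tumors, with a log2 difference of -0.38 (SE 0.20, adjusted p = 0.936 from limma) from -0.14 and -0.63, while E2f1 had -0.045 (SE 0.19, adjusted p = 0.989).

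**Figure D3:**
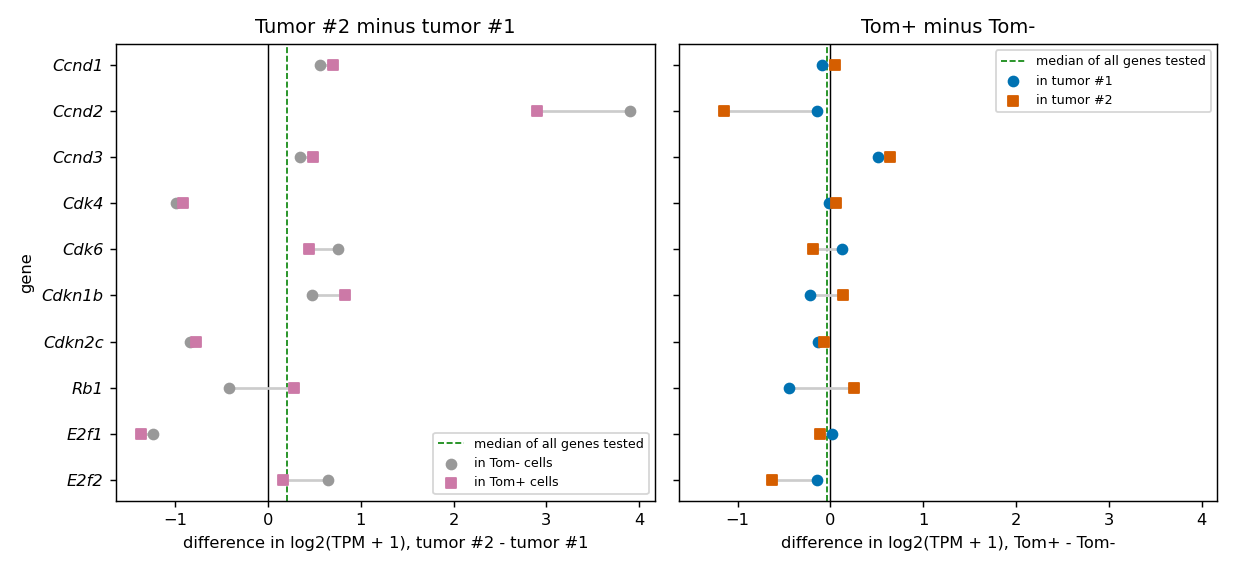
Differences in log2(TPM + 1) for each gene, with tumor #2 minus tumor #1 on the left, in Tom- cells (gray circles) and Tom+ cells (pink squares), and Tom+ minus Tom- on the right, in tumor #1 (blue circles) and tumor #2 (orange squares). Gray lines join the values of a gene and the dashed green line is the median of all genes tested. Ccnd2 lies far to the right on the left panel, at 3.90 and 2.89, and Cdk4, Cdkn2c and E2f1 lie to the left of 0, while on the right panel Ccnd3 is the gene with both values above 0.5.

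Relative to the median of all genes tested, the mean difference of tumor #2 from tumor #1 was 3.20 for Ccnd2, 0.45 for Cdkn1b, 0.43 for Ccnd1, 0.39 for Cdk6, 0.21 for Ccnd3 and 0.20 for E2f2. On the same scale it was -0.27 for Rb1, -1.01 for Cdkn2c, -1.16 for Cdk4 and -1.51 for E2f1. The signs of the difference in both fractions stayed as given for 7 members under each scaling tried, the exceptions being Ccnd3, E2f2 and Rb1. The size of the smaller differences did depend on it. With trimmed-mean scaling the mean difference between the tumors, not set against the median, was 0.30 for Ccnd1, 0.30 for Cdk6 and 0.34 for Cdkn1b, and with quantile normalization 0.42, 0.24 and 0.40, against 0.63, 0.60 and 0.66 with the TPM as deposited. For 8 of the 10 members the mean difference between the tumors was larger in size than that between Tom+ and Tom- cells, as for 76.5% of all genes tested, and the exceptions were Ccnd3 and Rb1.

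The comparison of Tom+ with Tom- cells was made within the tumors, by limma with a term for the mouse, and each gene then has 1 residual degree of freedom. Of the 10 members 0 had an adjusted p-value below 0.05, as had 0 (0%) of the 11339 genes tested, and the adjusted p-values of the members ran from 0.936 to 0.997. Before adjustment 1 member, Ccnd3, was below 0.05, beside 530 (4.67%) of all genes. In Tom+ cells 1 member was higher in both tumors, Ccnd3, beside 21.6% of all genes, and 3 were lower in both, Ccnd2, Cdkn2c and E2f2, beside 29.5%. Of these 3, Cdkn2c was no longer lower in both when protein-coding nuclear genes alone were kept. The lower value of Ccnd2 came mainly from tumor #2, where it was -1.15 against -0.14 in tumor #1, a tumor with hardly any Ccnd2 (log2 difference -0.65, SE 0.36, adjusted p = 0.936). The other 6 members had opposite signs in the tumors, and 5538 of the 11339 genes tested had no shared sign. The median absolute log2 difference was 0.071 for the members and 0.18 for all genes tested. An exact permutation test of 2 pairs cannot give a p-value below 0.5, so none was made.

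Further genes of the pathway were taken from a list of 25 other G1/S regulators, 22 of which passed the filter on low values, and from a list of 19 E2F target genes, all of which passed. Comparing Tom+ with Tom- cells, limma gave 0 of these genes a p-value below 0.05, before or after adjustment, and the smallest before adjustment was 0.127 for the regulators and 0.114 for the targets. The median log2 difference was 0.0013 for the regulators and -0.076 for the targets, beside -0.033 for all genes. The median of the targets had opposite signs in the tumors, 0.10 in tumor #1 and -0.23 in tumor #2. In Tom+ cells of both tumors 6 regulators were higher and 6 lower, and 2 targets were higher and 8 lower, when 21.6% of all genes were higher and 29.5% lower. The regulators furthest from 0 were E2f3, an activator E2F, with 0.48 (SE 0.29), mostly from tumor #2 (0.87 against 0.091), and E2f8, a repressor E2F, with -0.43 (SE 0.21), from -0.18 and -0.68. Among the targets these were the licensing factor gene Cdt1, with -0.33 (SE 0.19), and the maintenance methyltransferase gene Dnmt1, with -0.30 (SE 0.14), from -0.32 and -0.27. Each of these had an adjusted p-value of 0.936.

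The 19 E2F target genes of the list stood lower in tumor #2 almost throughout. The list was chosen with earlier results of these data known, and it does not stand for E2F targets as a class. Both libraries of tumor #2 were below both of tumor #1 for 18 of the 19, beside 23.7% of all genes tested. Tk1 was the exception, at 25.4 and 29.2 TPM in tumor #1 against 29.7 and 28.0 TPM in tumor #2. The median difference was -0.98, or -1.18 relative to the median of all genes. By the 2-fold limit 3 of the 19 targets were lower in tumor #2, beside 3.1% of all genes tested, and 0 were higher, beside 11.8%. Mcm5, a subunit of the replicative helicase, had 125 and 141 TPM in tumor #1 against 57.4 and 45.8 TPM in tumor #2. Rrm2, a subunit of ribonucleotide reductase, had 112 and 110 TPM in tumor #1 against 54.0 and 51.4 TPM in tumor #2. With trimmed-mean scaling all 19 targets were lower in both fractions, when 43.8% of all genes were, and with the TPM as deposited 27.5% of all genes were.

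The other regulators went both ways but lay lower in tumor #2 as a list. Their median difference was -0.24, or -0.44 relative to the median of all genes. Both libraries of tumor #2 were above both of tumor #1 for 8 of the 22 tested (36.4%, beside 44.8% of all genes), and below for 10 (45.5%, beside 23.7%). By the 2-fold limit 2 were lower and 1 was higher in tumor #2, when 3.1% of all genes were lower and 11.8% higher. Ccne2, which encodes cyclin E2, had 32.1 and 28.8 TPM in tumor #1 against 13.8 and 10.4 TPM in tumor #2, whereas Ccne1, for cyclin E1, stood between 36.2 and 40.5 TPM in all 4. Ccnh, the cyclin of the CDK-activating kinase, had 157 and 163 TPM in tumor #1 against 59.5 and 69.01 TPM in tumor #2, and its kinase Cdk7 had 29.6 TPM in both libraries of tumor #1 against 17.8 and 11.2 TPM in tumor #2. Mnat1, the third subunit of that kinase, had 13.7 and 13.6 TPM in tumor #1 against 14.7 and 14.9 TPM in tumor #2. Cdkn2a, a locus that encodes both p16 and p19ARF, which a value per gene cannot tell apart, had 0.682 and 1.35 TPM in tumor #1 against 47.0 and 42.2 TPM in tumor #2. This gene, the 1 counted as higher, passed the filter on low values only through tumor #2. In tumor #1 it reached 1 TPM in Tom+ cells alone. The inhibitor genes Cdkn1a (0.123 to 1.47 TPM), Cdkn1c (0.0414 to 0.440 TPM) and Cdkn2b (0.110 to 0.346 TPM) were too low to be tested.

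**Figure D4:**
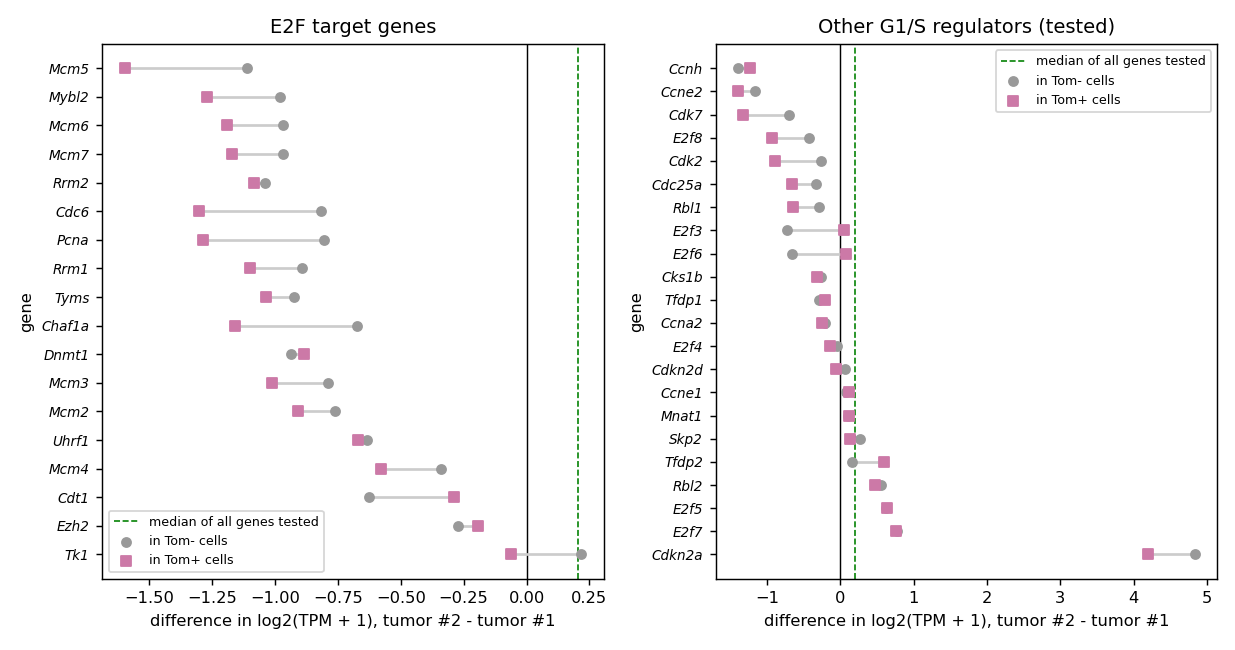
Differences of tumor #2 from tumor #1 in log2(TPM + 1) for 18 of the E2F target genes (left) and the 22 other G1/S regulators tested (right), in Tom- cells (gray circles) and Tom+ cells (pink squares), each pair joined by a line. The dashed green line is the median of all genes tested, at 0.20. Each of the plotted targets but Tk1 lies to the left of 0 with both values, and Cdkn2a stands alone on the right, at 4.83 and 4.20.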

How the data were processed

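B220+ IgM+ Tom+ and Tom- splenocytes of 2 mice were profiled as 4 RNA-seq libraries, grouped by the labels. Adaptors were removed by the authors with Cutadapt, transcripts of GRCm38 were quantified with Salmon (1.9 in the submitters' processing notes), and TPM values per gene were deposited. How transcripts were summed to genes is not given in the sources used here. Each library sums to 1000000 TPM, so depth is unknown and no counting error can be given. The authors' paired edgeR test needs counts and was not run.

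Symbols and positions came from GENCODE M21 (GRCm38), which held 34652 of 34866 identifiers. Values were analyzed as log2(TPM + 1), over genes that reached 1 TPM in 2 libraries or more, with limma 3.58.1 in R 4.3.3 (Tom status and tumor as terms, variance trend, median prior degrees of freedom 2.21, two-sided, Benjamini-Hochberg over all genes, threshold 0.05). The fit was tested on simulated data whose changes were larger than any member's between Tom+ and Tom- cells. That test does not bear on smaller differences. SE is limma's. The tumor is a block since each mouse gave both of its libraries. Their deviations from the group means correlated across genes (r = 0.626). The code also used Python 3.11.15 with pandas 2.3.3. Alternatives changed the block, pseudocount, filter, scaling, variance trend or prior, or left out a tumor.

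The members and lists were chosen with earlier results of these data known. Named beside the members were, in each pathway list, genes with an unadjusted p-value below 0.05, the 2 furthest from 0 between Tom+ and Tom- cells, those past the 2-fold limit between tumors and those below the filter. Tk1, Ccne1, Cdk7, Mnat1 and the overlapping genes were added after their values were seen. Some items, among them 1 E2F target gene past the 2-fold limit, are not reported here.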

Additional observations from a re-analysis of the deposited data

Results flagged for a closer look

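In 6 of the 10 genes the difference between Tom+ and Tom- cells pointed in opposite directions in the 2 tumors. Among all 11339 genes tested, 5538 had no shared sign either. With 1 pair of libraries per tumor, the difference between the tumors was not tested. The value for tumor #2 less that for tumor #1, in log2(TPM + 1), was 0.70 for Rb1, 0.36 for Cdkn1b, -0.31 for Cdk6, 0.14 for Ccnd1, -0.13 for E2f1 and 0.075 for Cdk4. For Rb1 the values were -0.44 and 0.25, and the neighboring gene Rcbtb2, which overlaps it, went the same way, while Lpar6, which also overlaps it, had 1.76 and 1.79 TPM in Tom- and Tom+ cells from tumor #1. For the other genes at least 1 of the 2 values was below 0.2 in size.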

How the results depend on the processing

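No alternative gave an adjusted p-value below 0.05 for any member or any gene tested, and the smallest over all genes ranged from 0.734 to 1.00. Without the replicate block, 140 genes and 0 members had an unadjusted p-value below 0.05. A tumor left out leaves 1 pair and no test. The range over these values was -0.087 to 0.049 for Ccnd1, -0.015 to 0.061 for Cdk4, -0.19 to 0.12 for Cdk6, -0.23 to 0.13 for Cdkn1b, -0.44 to 0.25 for Rb1, -0.11 to 0.022 for E2f1, and -0.020 to 0.0028 for the median of the other G1/S regulators, and -0.23 to 0.10 for that of the E2F target genes. Small negative values between Tom+ and Tom- cells turned to 0.026 with quantile normalization, 0.010 without immunoglobulin genes and 0.036 with protein-coding nuclear genes only for Ccnd1, and with the last setting to 0.020 for Cdk6, 0.0054 for Cdkn1b and 0.0018 for E2f1. In that setting Cdkn2c lost its shared sign in the 2 tumors. The median of the regulators in that comparison moved to 0.033, 0.030 and 0.054 with these 3 settings. Between the tumors, the members past the limit numbered 4 with trimmed-mean scaling (Cdk4 and Cdkn2c in addition) and 4 with a limit of 1.5-fold. The E2F target genes past it numbered 14 with trimmed-mean scaling, 7 with quantile normalization and 15 at 1.5-fold, and the regulators 6 at 1.5-fold. Among all genes, 929 of 11308 were higher and 651 lower by the 2-fold limit with trimmed-mean scaling. With quantile normalization, 799 of 11339 were higher and 631 lower. At 1.5-fold no count over all genes was made, so those counts have no share beside them. The median of the targets moved from -0.98 to -1.31 with trimmed-mean scaling. That of the regulators moved from -0.24 to -0.56 with that scaling and to -0.095 without a filter. The cause of these shifts was not tested. The unknown depth limits genes with a low TPM, such as Ccnd2 in tumor #1.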

Other observations

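Ratios of genes within a library do not depend on a factor applied to the whole library. The ratio of Cdk4 to its inhibitor gene Cdkn2c (Tom- cells first) was 19.6 and 21.4 in tumor #1 and 18.3 and 20.1 in tumor #2, although both genes stood lower in tumor #2. The ratio of Cdk4 to the summed D-type cyclins was 6.81 and 5.52 in tumor #1 and 2.04 and 1.84 in tumor #2. The ratio of Cdkn1b to Cdkn2c was 0.749 and 0.698 in tumor #1 and 1.97 and 2.29 in tumor #2. These are values of 4 libraries from 2 mice, and no test was made.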
